A study of Mus musculus with 20 samples.

Results

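Eef1a1 encodes the elongation factor eEF1A1, and its gene was described here together with its paralog Eef1a2 and with 3 processed pseudogenes, Eef1a1-ps1, Gm5869 and Gm13456. The members were taken by gene name from a table of 25190 genes, and all 5 were found. Eef1a1 and the 3 pseudogenes were chosen on their measured values in mice of both patient pools set against Control mice, so that their levels and differences are given as a description, without a test. Eef1a2 was added by name as the neuronal paralog and was tested. The counts of the 3 pseudogenes were high in 5 single mice, Control replicates 1 to 4 and Vehicle replicate 1, and low in the other 15, whereas Eef1a1 itself differed little between the same mice.

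The 20 libraries were made from male wild-type mice of the strain C57BL/6JOlaHsd, aged 4 months, with 5 mice in each of 4 groups. All carried bilateral cannulas in the CA1 of the dorsal hippocampus, and tissue was taken 24 hours after the last behavioural test. The Vehicle group received artificial cerebrospinal fluid without RNA. The Control group received small RNAs (sRNAs) purified from post-mortem hippocampi of 9 control individuals, and the Pool 1 and Pool 2 groups received sRNAs from 2 separate sets of 10 patients with schizophrenia. Each group of infused mice received 1 pool of RNA, so that the effect of a pool and that of the diagnosis cannot be told apart. RNA selected for poly(A) tails was sequenced in stranded libraries as single-end reads of 50 bases, and the counts per library summed to between 20588280 and 25543939. In bulk tissue, fewer cells of a type and less RNA per cell cannot be told apart.

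The protein eEF1A binds GTP and delivers aminoacyl-tRNA to the ribosome in each cycle of translation elongation. Its messenger RNA is one of the most abundant in most cells and belongs, like those of the ribosomal proteins, to the transcripts with a 5′ terminal oligopyrimidine tract. In mature neurons and in muscle, Eef1a2 takes over much of the role of Eef1a1, which remains the form of most other cell types. Processed pseudogenes arise when a messenger RNA is reverse-transcribed and inserted into the genome without its introns, and abundant housekeeping transcripts such as Eef1a1 have left many of them.

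Eef1a1 lies on the minus strand at chr9:78478449-78489151 of the mouse assembly GRCm38, and its longest transcript of 1794 bases has 8 exons and a coding part of 462 codons, from base 121 to base 1506. Eef1a2 lies on the minus strand at chr2:181147653-181157014, with 8 exons and 463 codons. Gm13456 is a single exon of 1365 bases on the plus strand at chr2:40555752-40557116. Eef1a1-ps1 is a single exon of 1387 bases on the plus strand at chr19:17926623-17928009. Gm5869 is a single exon of 1257 bases on the plus strand at chr5:86997159-86998415. None of the 3 pseudogenes overlapped another gene of the table, and the nearest genes were Lrp1b at 38.1 kb from Gm13456, Pcsk5 at 89.0 kb from Eef1a1-ps1 and Ythdc1 at 160.5 kb from Gm5869.

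The coding stretch from base 846 to base 945 of the Eef1a1 transcript is shown for the 5 members. Among gap-free coding stretches of 100 bases, it had the most substitutions shared by all 3 pseudogenes, which were 2. Ties went to the stretch with the most pseudogene differences from Eef1a1. The pseudogenes thus differ more densely here than over their whole length. The sequences are from GENCODE release M21, and capitals mark the bases that differ from Eef1a1.
Eef1a1: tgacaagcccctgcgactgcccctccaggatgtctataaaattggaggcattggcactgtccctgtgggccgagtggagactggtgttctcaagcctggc
Gm13456: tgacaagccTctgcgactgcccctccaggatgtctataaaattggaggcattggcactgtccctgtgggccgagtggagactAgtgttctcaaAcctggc
Eef1a1-ps1: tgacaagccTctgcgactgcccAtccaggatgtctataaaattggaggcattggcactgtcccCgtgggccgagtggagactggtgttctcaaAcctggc
Gm5869: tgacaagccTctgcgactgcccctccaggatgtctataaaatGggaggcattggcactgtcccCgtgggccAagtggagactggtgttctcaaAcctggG
Eef1a2: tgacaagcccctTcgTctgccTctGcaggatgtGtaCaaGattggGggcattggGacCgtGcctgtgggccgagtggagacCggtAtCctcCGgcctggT
In this stretch of 100 bases, Gm13456 differed from Eef1a1 at 3 bases, Eef1a1-ps1 at 4, Gm5869 at 6 and Eef1a2 at 17.

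Over the whole aligned length, Gm13456 was identical to Eef1a1 at 98.6% of 1364 bases, Eef1a1-ps1 at 97.4% of 1386 and Gm5869 at 96.3% of 1257. Eef1a2 was identical at 74.6% of 1749 aligned bases. All 3 pseudogenes shared 5 substitutions against Eef1a1, namely C855T, G939A, C1191T, G1296A and C1374T, with the Eef1a1 base first and positions counted from base 1 of its longest transcript. Each of the 5 falls on the third base of a codon, and Eef1a2 carries the Eef1a1 base at all of them. The shared bases are not particular to the 3 pseudogenes, since C855T was found in 10 of 10 other genomic copies that cover the position and C1374T in 10 of 12.

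A read of 50 bases can be assigned to a copy only where that copy differs from Eef1a1. Of the 1316 windows of 50 bases in Gm13456, 49.2% had an identical window in Eef1a1 and a further 30.02% differed by 1 base. In Eef1a1-ps1, 23.9% of the windows were identical and 36.5% differed by 1 base, and in Gm5869 the shares were 23.6% and 18.6%. No window of Eef1a2 came closer to Eef1a1 than 3 bases. The counts of the pseudogenes therefore rest on windows that often stand 1 or 2 bases apart from a far more abundant transcript, and they are uncertain for that reason. Reads of Eef1a1 from a window identical to a copy cannot be placed uniquely either. Only uniquely aligned reads were counted, so the counts of Eef1a1, and ratios to them, leave out such reads. How many these were was not computed. Eef1a1 and Eef1a2 are separable from each other at this read length.

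**Figure D1:**
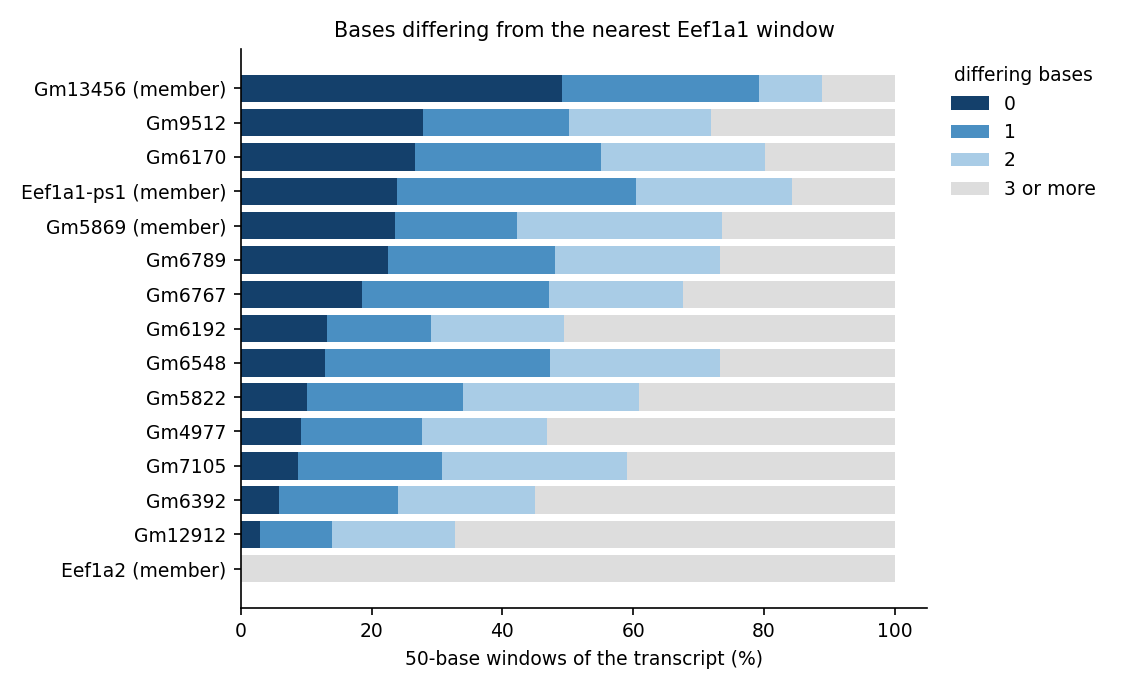
Share of the 50-base windows of each transcript (horizontal axis, percent) that differ from the nearest Eef1a1 window by 0, 1, 2 or 3 or more bases, for 3 pseudogenes, Eef1a2 and 11 other genomic copies (vertical axis). Gm13456 has the largest share of identical windows among these copies, 49.2%, and every window of Eef1a2 differs by 3 or more bases.

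Gm5869 showed the widest range. Its counts were 106, 86, 68, 89 and 13 in Control replicates 1 to 5. They were 69, 5, 5, 3 and 2 in Vehicle replicates 1 to 5. All Pool 1 mice had between 1 and 4 counts and all Pool 2 mice between 1 and 5, with sums of 9 and 15 counts over the 5 mice of each group, against 362 in Control mice. Control replicate 5 stood between the high and the low mice, with 0.575 CPM (counts per 1000000, with library sizes scaled by TMM factors) against 3.13 to 4.74 in the other 4 Control mice and no more than 0.229 in any mouse of both pools. Control and pool mice did not overlap in Gm5869, a gene chosen on this comparison, and the closest counts were 13 and 5. The share of all genes without such an overlap was not computed. A count of 3, taken as the floor, corresponded to 0.117 to 0.146 CPM, so that most values of the low mice lie at or near the floor.

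Gm13456, the copy nearest to Eef1a1 in sequence, had 554, 684, 449, 523 and 128 counts in Control replicates 1 to 5. Vehicle replicate 1 had 479 counts, and Vehicle replicates 2 to 5 had 106, 76, 82 and 127. Pool 1 replicates 1 to 5 had 103, 87, 63, 113 and 93 counts. Pool 2 replicates 1 to 5 had 131, 108, 99, 94 and 91 counts. The same 5 mice were high as for Gm5869, and Control replicate 5 had 5.66 CPM, within the range of the low mice from 3.06 to 5.99 CPM. Control and Pool 2 mice thus overlapped in Gm13456 through Control replicate 5 and Pool 2 replicate 1.

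Eef1a1-ps1 had 184, 163, 97, 135 and 32 counts in Control replicates 1 to 5. Vehicle replicate 1 had 138 counts, and the other 4 Vehicle mice had 25 to 42. Pool 1 mice had 19 to 36 counts and Pool 2 mice 27 to 36. Control replicate 5, at 1.42 CPM, again lay among the pool mice, which ranged from 0.809 to 1.495 CPM.

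**Figure D2:**
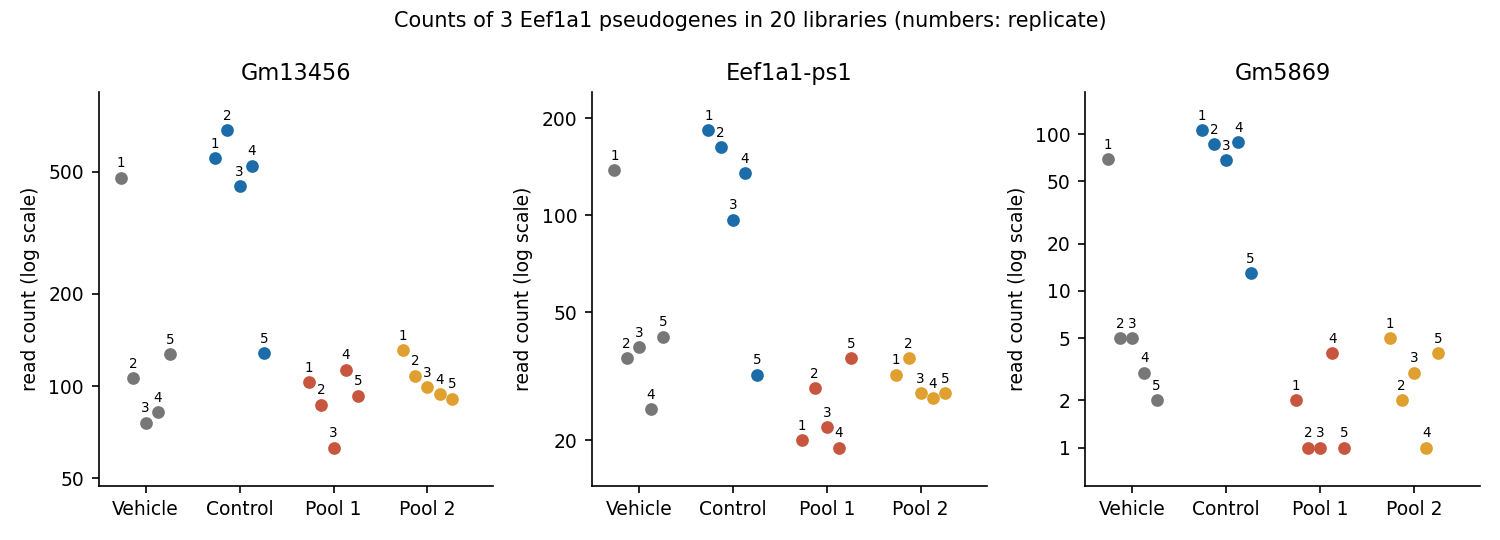
Read counts of Gm13456, Eef1a1-ps1 and Gm5869 (vertical axes, log scale) in the 20 libraries by group, each point 1 mouse with its replicate number. Control replicates 1 to 4 and Vehicle replicate 1 are the 5 highest points in all 3 panels, and Control replicate 5 lies near the low mice, at 13 counts in Gm5869.

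Set against Eef1a1 in the same library, the pseudogenes fell into 2 narrow ranges. Per 10000 counts of Eef1a1, the summed counts of the 3 pseudogenes were 171.1, 158.7, 160.5 and 167.0 in Control replicates 1 to 4 and 163.1 in Vehicle replicate 1. They were 37.1 in Control replicate 5, 26.7 to 37.3 in the other 4 Vehicle mice, 23.6 to 31.9 in Pool 1 mice and 25.6 to 33.5 in Pool 2 mice. No library lay between 37.3 and 158.7. For Gm13456 alone, the ratio was 112.3 to 117.4 in the 5 high libraries and 16.9 to 27.7 in the others. The pattern was what the members were chosen from, and the ratios were not tested.

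**Figure D3:**
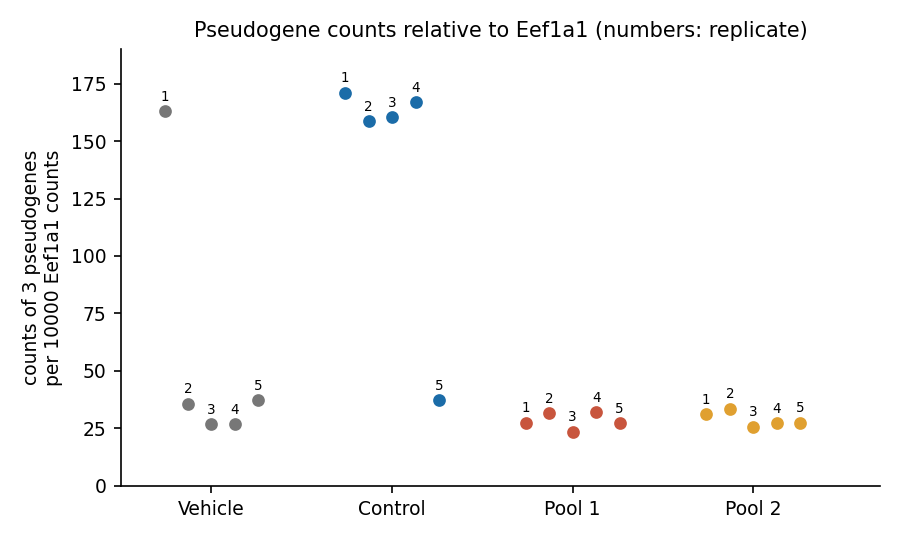
Summed counts of the 3 pseudogenes per 10000 counts of Eef1a1 (vertical axis) in each library by group, with replicate numbers. The 5 high libraries lie between 158.7 and 171.1 and the other 15 between 23.6 and 37.3.

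The makeup of the summed counts also differed between these mice. Gm5869 made up 10.1% of the 3 pseudogenes' counts in Vehicle replicate 1 and 9.22% to 12.6% in Control replicates 1 to 4, compared with 7.51% in Control replicate 5. In the 10 pool mice its share was 0.769% to 3.25%, and in Vehicle replicates 2 to 5 it was 1.17% to 4.17%. Gm13456 gave the largest part in every library, between 63.3% and 83.1%.

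As a description of the comparisons from which these genes were chosen, Gm5869 had a log2 fold change of −5.21 ± 0.92 (SE) in Pool 1 and −4.54 ± 0.86 in Pool 2 against Control mice. Gm13456 had −2.32 ± 0.47 and −2.16 ± 0.47, and Eef1a1-ps1 had −2.24 ± 0.42 and −2.02 ± 0.42. With single libraries left out, these values ranged from −5.69 to −4.33 for Gm5869, from −2.55 to −2.02 for Gm13456 and from −2.48 to −1.80 for Eef1a1-ps1, where the choice of the genes fixed the direction. Between the pools, the log2 differences of Pool 2 from Pool 1 were smaller than their errors, at 0.15 ± 0.47 for Gm13456, 0.21 ± 0.44 for Eef1a1-ps1 and 0.66 ± 1.25 for Gm5869, which was 1.15 without Pool 1 replicate 4.

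Control mice, whose values took part in the choice of these genes, had more counts of the pseudogenes than Vehicle mice. As a description, the log2 fold changes were 2.10 ± 0.69 for Gm5869, 1.41 ± 0.45 for Gm13456 and 1.11 ± 0.40 for Eef1a1-ps1. These values changed most with Vehicle replicate 1. Without that library, the same values were 4.21, 2.22 and 1.75. The differences of the pools from Vehicle mice rested on it in the opposite sense. Gm5869 had −3.11 ± 0.99 in Pool 1 against Vehicle mice over all libraries and −0.98 without Vehicle replicate 1, Gm13456 had −0.91 ± 0.47 and −0.082, and Eef1a1-ps1 had −1.13 ± 0.43 and −0.47. In Pool 2, Gm5869 went from −2.45 ± 0.91 to −0.35, Gm13456 from −0.76 ± 0.46 to 0.035, a change of sign, and Eef1a1-ps1 from −0.92 ± 0.42 to −0.29. These comparisons share the Control and Vehicle libraries, so their values are given side by side only.

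Several values of these libraries differed in part between Control and pool mice, but did not separate the mice with high pseudogene counts from the others. RNAs without a poly(A) tail summed to 472 to 1567 CPM in Control mice over the 3 of 6 listed genes that were measured, none of them at 0 in every library, against 1525 to 12533 in Pool 1 mice and 2988 to 8340 in Pool 2 mice. Vehicle replicate 1, with high pseudogene counts, had 4436 CPM of these RNAs, and Control replicate 5, with low ones, had 1567. Of the Vehicle mice with low pseudogene counts, replicate 2 had 4391 CPM, replicate 3 had 549, replicate 4 had 1181 and replicate 5 had 1643. All other processed pseudogenes together took 0.0646% to 0.0860% of the counts in Control mice and 0.0547% to 0.0767% in pool mice. Vehicle replicate 1 had 0.0625% and Control replicate 5 had 0.0653%. The part of these features in the pseudogene counts was not tested.

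The genes most like the pseudogenes were taken as the 5 with the highest Pearson correlation of log2 CPM with the mean standardised level of the 3, over 20 libraries, among 16639 genes with a mean of at least 10 normalised counts. They were Rpl19-ps11, a ribosomal protein pseudogene (r = 0.84), Anapc10, a subunit of the anaphase-promoting complex (r = 0.75), Slc17a5, the lysosomal sialic acid transporter (r = 0.74), Gm29216, an unprocessed pseudogene (r = 0.71), and Pbdc1 (r = 0.70). The libraries fell into 2 sets, and within the 15 low libraries the same correlations were 0.41, 0.61, −0.52, 0.50 and 0.39.

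Slc17a5 is also a close neighbour of Eef1a1 itself, at chr9:78536488-78588041, 47.3 kb away. Its level was 31.0, 35.6, 35.0 and 31.3 CPM in Control replicates 1 to 4 and 31.3 CPM in Vehicle replicate 1. It was 23.2 CPM in Control replicate 5, 23.9 to 28.0 in the other Vehicle mice, 22.6 to 28.9 in Pool 1 mice and 21.3 to 26.4 in Pool 2 mice. The 5 libraries with high pseudogene counts were the 5 highest in Slc17a5, a gene taken for its correlation with the pseudogenes over these same libraries. Its rank correlation with them over all libraries was 0.37. The counts carry no read sequences, so that reads of a copy cannot be told apart from reads of an Eef1a1 allele that differs from the reference at the same bases, and whether these 5 mice differed at the Eef1a1 locus was not tested. The other 12 measured genes within 1 Mb of Eef1a1 were looked at after this was seen. Mto1, the nearest at 3.10 kb, had r = −0.25 with the pseudogenes, Cgas at 35.2 kb had −0.55, Elovl5 at 493.9 kb had 0.56 and Lrrc1 at 933.6 kb had 0.69. Cd109 at 126.4 kb had 0.37 and Rn7sk at 302.8 kb had −0.50, while 7 of all 13 neighbours lay between −0.3 and 0.3. The share of all genes in that range was not computed. Of the 50 genes with the largest absolute correlation, 5 were on chromosome 9, which holds 5.79% of all genes compared. These correlations are over libraries that share their depth and normalisation and carry no test.

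Eef1a1 was among the abundant transcripts of the tissue, with 0.163% to 0.251% of all counts in each library. Its level was 1863 ± 154 CPM (SD, n = 5) in Vehicle mice and 2027 ± 254 in Control mice. It was 1820 ± 116 CPM in Pool 1 and 2015 ± 297 in Pool 2. Single Control mice had 2205, 2333, 1761, 1778 and 2061 CPM in replicates 1 to 5, and single Pool 1 mice had 1849, 1663, 1771, 1837 and 1979. Control replicates 3 and 4, which had high pseudogene counts, were thus as low in Eef1a1 as most Pool 1 mice, and Vehicle replicate 1, at 1772 CPM, was the lowest of its group.

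In order of their means the groups were Pool 1, Vehicle, Pool 2 and Control, and neighbours in this order overlapped. As a description, the log2 fold change of Eef1a1 was −0.16 ± 0.10 (SE) in Pool 1 and −0.01 ± 0.10 in Pool 2 against Control mice, and 0.12 ± 0.10 in Control against Vehicle mice. Without Control replicate 2, the first was −0.10 and the last 0.067. The difference of Pool 2 from Pool 1 was 0.15 ± 0.10 and dropped to 0.06 without Pool 2 replicate 1, the highest library at 2474 CPM. This mouse also had the highest summed level of the 6 microglial markers, 543.7 CPM where its group otherwise ranged from 217 to 318, of the 5 blood markers, 181.7 CPM, of the 6 endothelial markers, 277.5 CPM, and of the 6 astrocyte markers, 6362 CPM. None of these markers was at 0 in every library. The same mouse had the lowest sum of the 6 neuronal markers in its group, 9277 CPM. Over the 20 libraries, the summed markers had r with Eef1a1 of 0.63 for microglia, 0.59 for blood, 0.52 for endothelium and 0.19 for astrocytes. For neurons r was −0.48, for choroid plexus −0.21 and for oligodendrocytes 0.09. These values are a description over libraries that share their normalisation. The part of the markers in the Eef1a1 level of this mouse was not tested. Counting Eef1a1 and its 14 copies of the table as 1 unit gave −0.17 in Pool 1 and −0.03 in Pool 2 against Control mice.

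The genes most like Eef1a1 over the 20 libraries were the ribosomal protein genes Rps24 (r = 0.96), Rpl32 (0.95), Rps4x (0.95) and Rps20 (0.95). Without the 2 libraries farthest from the median of Eef1a1, these correlations were 0.91 to 0.92. Of the 50 genes with the highest correlation, 35 were among the 79 ribosomal protein genes compared, which make up 0.475% of all genes compared. The 79 genes together took 0.7103% to 1.20% of the counts, with the highest share in Pool 2 replicate 1 and the next in Control replicates 1 and 2, the same 3 libraries that led in Eef1a1. None of the 50 genes most like the pseudogenes was a ribosomal protein gene.

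Eef1a2 was lower than Eef1a1 in every library. Per kilobase of the longest transcript, Eef1a1 had 1076 ± 123 CPM per kb and Eef1a2 had 378 ± 40.1 (SD, n = 20), with a ratio of Eef1a1 to Eef1a2 between 2.37 and 3.63. Full transcript lengths were used. Reads of Eef1a1 that fit a copy equally well were not counted, which can make its level and this ratio too low. The mean ratio was 3.03 ± 0.30 (SD, n = 5) in Vehicle, 2.92 ± 0.17 in Control, 2.58 ± 0.13 in Pool 1 and 2.93 ± 0.41 in Pool 2 mice. Pool 1 mice had ratios of 2.37 to 2.70, Control mice 2.75 to 3.16, Vehicle mice 2.81 to 3.54 and Pool 2 mice 2.65 to 3.63. As the ratio contains Eef1a1, which was chosen on the comparisons with Control mice, it is given without a test.

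**Figure D4:**
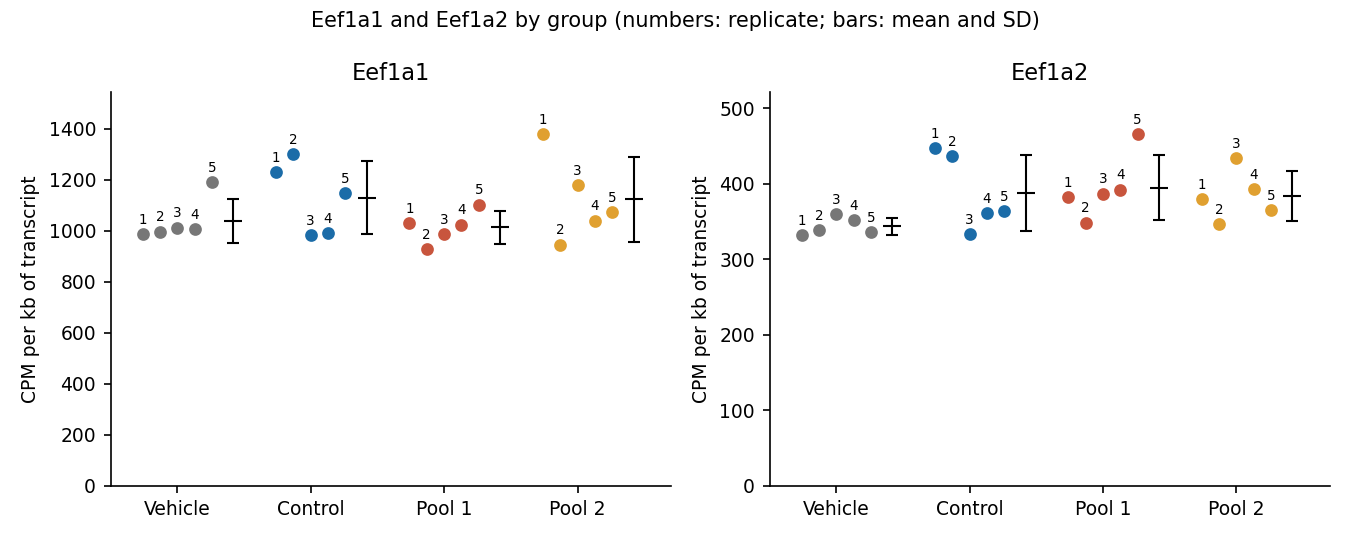
Levels of Eef1a1 and Eef1a2 in CPM per kilobase of the longest transcript (vertical axes, from 0) in each library by group, with replicate numbers, and the mean and SD of each group (black). Eef1a1 averages 1076 and Eef1a2 averages 378 over 20 libraries, and the 5 Vehicle mice lie close together in Eef1a2, between 332 and 360.

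The level of Eef1a2 was 716 ± 24.6 CPM (SD, n = 5) in Vehicle mice, 809 ± 105 in Control, 823 ± 89.6 in Pool 1 and 799 ± 68.6 in Pool 2 mice. Single Vehicle mice had 691, 705, 749, 733 and 699.9 CPM in replicates 1 to 5. Control replicates 1 to 5 had 931, 909, 694, 752 and 759 CPM. Pool 1 replicates 1 to 5 had 796, 726, 806, 817 and 970 CPM, and Pool 2 mice had 723 to 905. Vehicle mice were the lowest group with the least spread, and each of the infused groups overlapped with them.

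No comparison of Eef1a2 passed the threshold of an absolute log2 fold change of 0.3 with an unadjusted p-value under 0.05. Against Control mice, the log2 fold change was 0.03 ± 0.09 (SE) in Pool 1 and −0.02 ± 0.09 in Pool 2, with adjusted p-values of 0.994 and 0.985 (edgeR quasi-likelihood test, Benjamini-Hochberg over all genes). The difference between the pools was −0.04 ± 0.09, with an adjusted p-value of 0.962 in edgeR. The 95% intervals of these 3 log2 values were −0.16 to 0.21, −0.20 to 0.16 and −0.22 to 0.14.

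Against Vehicle mice the differences were larger. Eef1a2 was higher by a log2 fold change of 0.18 ± 0.09 in Control, 0.20 ± 0.09 in Pool 1 and 0.16 ± 0.09 in Pool 2 mice, with adjusted p-values of 0.751, 0.749 and 0.907 in edgeR. In two-sided exact permutation tests over the 10 libraries of each comparison, the p-values were 0.0794, 0.0238 and 0.0238, where 0.00794 is the smallest possible, and 0.159, 0.0714 and 0.0714 after adjustment over the 6 comparisons. These 3 comparisons share the Vehicle libraries. The genes most like Eef1a2 over the 20 libraries were Pfkm, the muscle-type phosphofructokinase (r = 0.94), Adprh (0.93), Mdh2, the mitochondrial malate dehydrogenase (0.92), Flot2 (0.92) and Pop7 (0.92), and without the 2 farthest libraries they had 0.87 to 0.90.

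Among the other genes of translation elongation, few passed the threshold. Of 24 listed genes other than Eef1a1 that were in the table, 1 was lower in Pool 1 than in Control mice (3.48% of all genes called), 0 differed in Pool 2 against Control mice (6.22% of all genes called) and 1 was higher in Pool 2 than in Pool 1 (6.82% of all genes called). Against Vehicle mice, 0 of the 24 were called in Control (5.10% of all genes), in Pool 1 (5.34%) and in Pool 2 (4.69%). The edgeR test gave an unadjusted p-value under 0.05 for 2, 1 and 1 of the genes in the first 3 comparisons and for 2, 1 and 1 in the last 3, and DESeq2 called 1, 0 and 1 in the first 3 and 0 in each of the last 3.

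The single gene called was Eef1akmt4, a lysine methyltransferase of eEF1A, which had few counts. It had 8, 3, 6, 3 and 7 counts in Pool 1 mice, 8 to 14 in Control mice and 9 to 16 in Pool 2 mice. Its log2 fold change was −0.96 ± 0.37 in Pool 1 against Control mice and 1.06 ± 0.37 in Pool 2 against Pool 1, with adjusted p-values of 0.917 and 0.382 in edgeR. Pool 1 mice had 0.129 to 0.324 CPM, Control mice 0.368 to 0.619, Pool 2 mice 0.387 to 0.623 and Vehicle mice 0.202 to 0.745.

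The subunits of the exchange factor that reloads eEF1A with GTP did not pass the threshold in any of the 6 comparisons. Eef1b2 had 133 ± 24.3 CPM (SD, n = 5) in Control, 117 ± 13.5 in Pool 1 and 129 ± 19.1 in Pool 2 mice. Eef1g had 135 ± 20.01, 120.5 ± 11.1 and 130.3 ± 10.7 CPM, and Eef1d had 73.5 ± 11.1, 68.5 ± 6.60 and 76.4 ± 9.40. Eef2, the translocase that moves the ribosome along the messenger RNA, had 1042 ± 46.8 CPM in Control, 1086 ± 96.5 in Pool 1 and 1122 ± 104 in Pool 2 mice. The largest log2 fold change among these 4 genes was 0.24 ± 0.10 for Eef1g in Control against Vehicle mice, with an adjusted p-value of 0.734 in edgeR. The median log2 fold change of the 24 genes was −0.05 in Pool 1 and −0.02 in Pool 2 against Control mice, beside −0.01 and 0.00 over all genes.

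Eef1a1 has further copies in the genome, and 11 others of at least 90% identity over at least 300 bases were in the table, all processed pseudogenes. Gm6548 and Gm6192 had the highest counts among them. Gm6548 had 61 to 88 counts in Control mice, 60 to 101 in Vehicle, 42 to 86 in Pool 1 and 78 to 161 in Pool 2 mice. Gm6192 had 72 to 108 counts in Control mice, 51 to 92 in Vehicle, 67 to 85 in Pool 1 and 67 to 104 in Pool 2 mice. Neither separated the 5 mice with high counts of the 3 pseudogenes from the others, and for both the groups overlapped.

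The other 9 copies had few reads, with 0 to 36 counts per library. Of these, Control replicate 1 stood apart in several. Gm12912 had 36 counts there and 0 to 4 in the other 19 libraries. Gm6392 had 23 counts against 0 to 8, Gm7105 had 20 against 0 to 4 and Gm4977 had 12 against 0 to 3. Gm6170 had 29 counts in this library and 2 to 14 in the others, and Gm6789 had 24 against 0 to 13. Gm9512 had 1 to 7 counts in Control and 1 to 3 in Pool 1 mice.

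**Figure D5:**
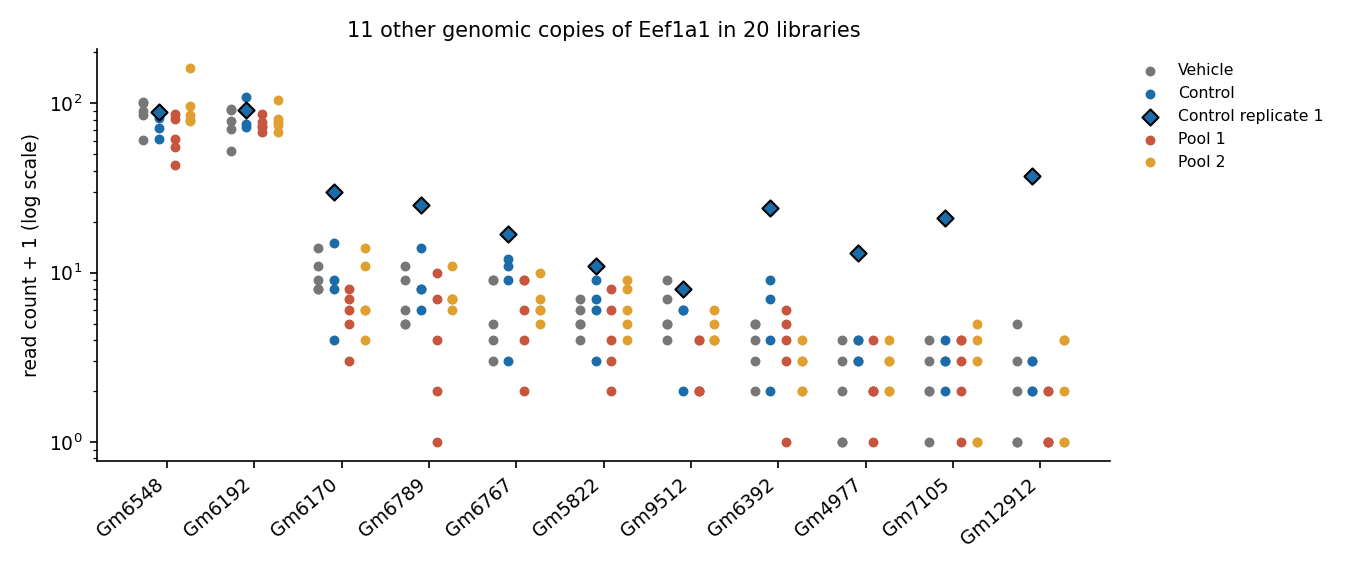
Read counts plus 1 (vertical axis, log scale) of 11 other genomic copies of Eef1a1 (horizontal axis) in 20 libraries, coloured by group, with Control replicate 1 as a diamond. Control replicate 1 has 36 counts of Gm12912 against 0 to 4 in the other libraries, while Gm6548 and Gm6192 range from 42 to 161 and from 51 to 108 counts.

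By the same threshold, 6 of the 11 copies were called in Pool 1 against Control mice, all lower (3.48% of all genes called), and 2 in Pool 2 against Control mice, both lower (6.22%). In Control against Vehicle mice, 4 were called, all higher (5.10%). Without Control replicate 1, these counts were 1, 0 and 0. The copies called in these 3 comparisons all had a mean under 10 normalised counts, the minimum that the study set for its gene lists. Among genes that reach this minimum, 0 copies were called in the 3 comparisons. Without Control replicate 5, 4 were called in Pool 2 against Control mice, and without Vehicle replicate 2 or Vehicle replicate 3, 1 was called in Control against Vehicle mice. In Pool 2 against Pool 1 (6.82% of all genes called), 1 copy was called, Gm6548, with a log2 fold change of 0.58 ± 0.24 and an adjusted p-value of 0.480 in edgeR, and 0 were called without Pool 2 replicate 1, Pool 1 replicate 1 or Pool 1 replicate 5. In Pool 1 against Vehicle mice, Gm9512 was called, with −1.40 ± 0.52 and an adjusted p-value of 0.654 in edgeR, and in Pool 2 against Vehicle mice 0 were called, with 0 at an unadjusted p-value under 0.05 in edgeR and 0 called by DESeq2. The median log2 fold change of the 11 copies was −1.37 in Pool 1 and −0.77 in Pool 2 against Control mice, beside −0.01 and 0.00 over all genes. Reads of these copies share windows with Eef1a1 and with each other, so they are not independent of the 3 pseudogenes.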

How the data were processed

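RNA of 20 mouse hippocampi was sequenced in stranded poly(A) libraries. As the study's methods state, the authors used STAR both to align the single-end reads of 50 bases to GRCm38 and to count them over GENCODE M20 genes, and deposited raw counts with 1 column per library. The lowest sum of a gene in the table was 10, the minimum that the methods name. STAR's gene counts take only uniquely aligned reads, and the strand setting is not given in the sources used here. Groups came from the labels, and p-values set a difference between groups against the spread between mice. As each infused group received 1 pool of RNA, they do not cover the spread between donors or between pools.

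Here the counts of 25190 genes were fitted with edgeR 4.0.16 (TMM, glmQLFit with robust estimation, glmQLFTest) in R 4.3.3, in 1 fit of 4 groups, without a filter, with Benjamini-Hochberg adjustment over all genes. A gene was called where its unadjusted p-value was under 0.05 and its log2 fold change reached 0.3 in either direction. Log2 CPM used a prior count of 2. The chi-square between replicates of a group was 8.22 to 66.8 per degree of freedom, above sampling noise in every pair. Separate libraries of 1 mouse could exceed that noise too, so this cannot show that the mice were separate. All were counted as separate mice by the replicate numbers of their labels. Other copies of Eef1a1 were transcripts of GENCODE M21 that blastn 2.17.0 aligned to its longest transcript at 90% identity or more over at least 300 bases. Of 12 found, 11 were in the table. Eef1a1-ps1 was matched by its identifier. Of 26 listed elongation genes, 25 were in the table.

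The members and lists were chosen with earlier results of these data known. Named are the members, listed elongation genes called in any comparison with Eef1b2, Eef1d, Eef1g and Eef2, other copies called in any comparison or with a mean of at least 10 normalised counts, and the 5 genes most correlated with each of the 3 pseudogenes' mean, Eef1a1 and Eef1a2. One gene that this rule names is not reported here. The neighbours of Eef1a1 were added after values were seen. Marker lists of neurons, astrocytes, microglia, oligodendrocytes, endothelium, choroid plexus, blood and RNAs without a poly(A) tail were summed. In neurons the sums were 8733 to 11848 CPM, in oligodendrocytes 2559 to 8188, in endothelium 121 to 277, in choroid plexus 92.1 to 8980, in blood 34.8 to 182, in astrocytes 3657 to 6362 and in microglia 217 to 544. The alternatives were DESeq2 1.42.0, its size factors in edgeR, filterByExpr, a mean normalised count of at least 10, fits of only the groups compared, a replicate block, non-robust estimation, leaving out each library, leaving out Vehicle replicate 4 and Pool 2 replicate 1 together, and Eef1a1 summed with its copies. The fits were tested on simulated counts.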

Additional observations from a re-analysis of the deposited data

Results flagged for a closer look

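A library was flagged where it lay far from the other 4 of its group. Over 132 groups of 5 libraries (33 genes in 4 groups), 14 were flagged. Chance flags about 1 in 20 of groups chosen without regard to their values, but several of these genes were named for their correlation with Eef1a1 or for a call that rests on 1 library, so that their number is not set against that share. Vehicle replicate 1 stood above the other Vehicle mice in all 3 pseudogenes, with 2.91 CPM of Gm5869 against at most 0.216, 20.2 CPM of Gm13456 against at most 5.91 and 5.81 CPM of Eef1a1-ps1 against at most 1.95. Vehicle replicate 5 was the highest of its group in Eef1a1, at 2136 CPM against at most 1815, and in 2 of the genes most like it, with 202.8 CPM of Rps24 and 107.7 of Rps20. It was also the highest in Pbdc1, at 15.2 CPM.

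Control replicate 1 was the highest Control mouse in Gm12912 (1.61 CPM against at most 0.0921), Gm4977 (0.536 against at most 0.138) and Gm7105 (0.894 against at most 0.133). Pool 2 replicate 1 was the highest Pool 2 mouse in Gm13456 (5.99 CPM), Gm6548 (7.36 CPM) and Gm6789 (0.457 CPM). Vehicle replicate 3 was the lowest Vehicle mouse in Gm6548, at 2.42 CPM against at least 3.91.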

How the results depend on the processing

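Of 762 values of 42 results under other settings, 714 were labelled the same. Eef1a2 values had to stay on their side of the threshold and other log2 fold changes within the spread between replicates. This spread was wide in the pseudogenes, so a large change could still be labelled the same. Gm13456 in Control against Vehicle was, with a log2 fold change of 1.41 in the main fit and 2.22 without Vehicle replicate 1. Counts of called genes had to be equal or close to the main count, such as 7 copies for 6 in Pool 1 against Control. The other 48 moved, all of them counts of called genes or log2 fold changes of Gm5869 and Gm13456. In genes with a mean of at least 10 normalised counts, 0 elongation genes were called in Pool 1 against Control and in Pool 2 against Pool 1, and 0 other copies in Pool 1 and Pool 2 against Control, in Control against Vehicle and in Pool 1 against Vehicle, where fewer genes were tested. With filterByExpr, the other copies called were 1 in Pool 1 against Control and 0 in Pool 2 against Control, in Control against Vehicle and in Pool 1 against Vehicle, and 1 elongation gene was called in Control against Vehicle. With only the groups compared in the fit, 1 elongation gene was called in Pool 2 against Control and 1 in Control against Vehicle, and the other copies called were 1 in Pool 2 against Control, 0 in Pool 2 against Pool 1 and 2 in Pool 1 against Vehicle. DESeq2 called 1 other copy in Pool 2 against Control. Without Vehicle replicate 4 and Pool 2 replicate 1 together, 0 other copies were called in Pool 2 against Pool 1 and 1 elongation gene in Control against Vehicle. Where fewer genes or samples were not the construction, the cause was not tested.

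The replicate numbers did not pair the mice: the correlation of same-numbered deviations between groups ran from −0.32 to 0.28 and was over 0.1 in 1, 4, 2, 0, 2 and 1 of 5 pairs in the 6 comparisons. With the replicate number as a block, the other copies called were 1 in Pool 2 against Control, 2 in Control against Vehicle and 2 in Pool 1 against Vehicle, and the log2 fold changes of Eef1a2 were between −0.04 and 0.20 with no call changed.

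Leaving out each library in turn, the elongation genes called were 1 to 3 in Pool 1 against Control (3 without Control replicate 4, 2 without Pool 1 replicate 5), 0 to 2 in Pool 2 against Control (2 without Control replicate 4), 0 to 2 in Control against Vehicle (2 without Control replicate 4) and 0 to 1 in Pool 1 against Vehicle (1 without Vehicle replicate 3 or Pool 1 replicate 1). The other copies called were 1 to 7 in Pool 1 against Control, 0 to 4 in Pool 2 against Control, 0 to 1 in Pool 2 against Pool 1, 0 to 5 in Control against Vehicle and 1 to 2 in Pool 1 against Vehicle (2 without Vehicle replicate 3). The log2 fold change of Gm5869 ran from 0.38 to 1.15 in Pool 2 against Pool 1, from 1.82 to 4.21 in Control against Vehicle, from −3.59 to −0.98 in Pool 1 against Vehicle and from −2.73 to −0.35 in Pool 2 against Vehicle. That of Gm13456 ran from −1.11 to −0.082 in Pool 1 and from −0.96 to 0.035 in Pool 2 against Vehicle. The ends at 4.21, −0.98, −0.35, −0.082 and 0.035 are without Vehicle replicate 1. Counts of 1 to 5 in Gm5869 limit what can be said of the difference between the pools.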
